A study of Mus musculus with 6 samples.

Results

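Il1r2, Msr1, Cd300lf and Srgn are 4 genes whose UMI counts in SVZ microglia were high 1 day after photothrombotic ischemia (PT, a cortical stroke made with the dye Rose Bengal and light). They were chosen by name for that rise, as 4 of the 34203 rows of the single-cell count matrix, and are described here in all 3 conditions, in each of the 6 libraries and in every subcluster. All mice were Nestin-CreERT2:R26-yfp mice that had received tamoxifen as adults, the uninjured controls included, so YFP marked cells in which the Nestin promoter had driven Cre and their progeny. The groups were uninjured mice without PT, mice at PT D1 (1 day after PT) and mice at PT D7 (7 days after PT), with 2 libraries each, all from the lateral SVZ, which after PT was taken on the side of the injury. CD11b+ CD45low microglia and YFP+ neural stem and precursor cells (NSPCs) were sorted from the same tissue, in a digestion dosed per pool of mice. The number of mice behind a library is not stated in the sources used here, so p-values measure only the spread between these libraries, which may be technical.

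These 4 genes belong to the ways in which a macrophage-type cell receives and handles inflammatory cues. Il1r2 encodes the decoy receptor of interleukin-1, which binds the cytokine and has no signalling domain, so it competes with the signalling receptor Il1r1. Msr1 encodes scavenger receptor A, which takes up modified lipoproteins and cell debris, and Cd300lf encodes an inhibitory receptor that recognises phospholipids exposed on dying cells. Srgn encodes serglycin, the core protein of an intracellular proteoglycan that holds proteases and other mediators in secretory granules of blood cells.

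In GRCm39 with the GENCODE vM39 annotation, Il1r2 (ENSMUSG00000026073) lies on chromosome 1 from 40113239 to 40164391, plus strand. Msr1 (ENSMUSG00000025044) lies on chromosome 8 from 40034726 to 40095714, minus strand. Cd300lf (ENSMUSG00000047798) lies on chromosome 11 from 115007040 to 115024818, minus strand, and Srgn (ENSMUSG00000020077) on chromosome 10 from 62329029 to 62363238, minus strand. The 4 genes therefore sit on 4 chromosomes. Cd300lf is the one that overlaps another protein-coding gene, Rab37 on the opposite strand, and Rab37 had 2 UMIs in all 658 cells. The counts come from 3′ tags, 1 per molecule, so they are not divided by transcript length and do not show which start of a gene was used.

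The sequences before the starts are shown for 3 genes, because the genes were high together at PT D1 and a reader may want to compare what stands upstream of them. The RefSeq table, in the build GRCm38.p6, matched 3 of the 4 genes with 4 windows, 2 of them for Srgn; Msr1 had no entry. Each sequence below holds the 250 bases before the start, 5′ to 3′ on the gene's own strand, with matches to 7 searched motifs in capitals. The Il1r2 window is chr1:40085843-40086092 on the plus strand, the Cd300lf window chr11:115133993-115134242 on the minus strand and the first Srgn window chr10:62527446-62527695 on the minus strand.
Il1r2: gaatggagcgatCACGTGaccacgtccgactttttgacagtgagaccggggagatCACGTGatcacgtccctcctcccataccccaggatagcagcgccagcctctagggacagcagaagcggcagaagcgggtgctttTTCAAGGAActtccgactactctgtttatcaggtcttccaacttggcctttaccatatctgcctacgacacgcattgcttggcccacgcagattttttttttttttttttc
Cd300lf: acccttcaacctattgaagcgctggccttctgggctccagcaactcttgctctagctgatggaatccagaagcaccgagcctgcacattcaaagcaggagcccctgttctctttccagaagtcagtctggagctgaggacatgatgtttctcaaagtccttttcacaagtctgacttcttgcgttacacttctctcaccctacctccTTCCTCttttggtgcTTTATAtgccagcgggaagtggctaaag
Srgn: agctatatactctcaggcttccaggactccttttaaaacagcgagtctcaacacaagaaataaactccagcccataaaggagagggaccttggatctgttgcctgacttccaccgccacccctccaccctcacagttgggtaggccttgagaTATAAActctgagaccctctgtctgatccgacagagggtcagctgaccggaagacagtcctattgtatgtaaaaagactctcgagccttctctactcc

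The capitals in the Il1r2 window are 2 copies of CACGTG (the E-box), from 238 to 233 and from 195 to 190 bases before the start, and 1 match to TTCNNNGAA (a STAT motif) from 111 to 103 bases before it. In the Cd300lf window they are GAGGAA (the core of an ETS motif, read on the other strand as ttcctc) and TATAAA (the TATA box, read on the other strand as tttata) from 28 to 23 bases before the start. In the first Srgn window TATAAA stands from 98 to 93 bases before the start. The other motifs searched were TGANTCA (AP-1), TTGCNNAA (C/EBP) and the NF-kB motif. Both strands were searched, and none of the matches shown overlaps another. Of the 32851 promoter windows in the table, 6.02% held CACGTG, 0.429% held it at least 2 times, 7.02% held TTCNNNGAA, 23.3% GAGGAA, 12.4% TATAAA, 6.75% TGANTCA, 9.56% TTGCNNAA and 7.25% the NF-kB motif. The motifs were chosen with these sequences in view, no motif was shared by all 3 genes, and a match describes letters, not a site in use.

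The matrix held 416 microglia, 222 NSPCs and 20 cells of a mixed population. No cell name occurred in 2 libraries. A library held 54 to 84 microglia with 294984 to 468186 UMIs in sum, and 15 to 61 NSPCs with 82504 to 497292 UMIs. Median depth was 4155 to 5522 UMIs per microglia and 5118 to 7002 per NSPC. All 10 microglial markers (such as P2ry12 and Cx3cr1) had UMIs in the microglia of all 6 libraries, with a sum of 16720 and 16543 CPM (UMIs per 1000000 UMIs of the summed cells) in uninjured, 12489 and 12182 CPM at PT D7 and 8679 and 6224 CPM at PT D1. The markers of the sorted cell type were thus present throughout and lowest at PT D1, and their part in the results was not tested. Of the 11 neutrophil markers, Ly6g, Retnlg, Mmp9 and Camp were at 0 in all 6 libraries, and the list summed to 170 to 316 CPM, highest in uninjured. Most of its UMIs were Csf3r, at 203 and 256 CPM in uninjured and 108 and 109 CPM at PT D1. Cxcr2 was at 63.1 and 49.1 CPM in uninjured and 61.2 and 46.9 CPM at PT D1. S100a8, S100a9, Mmp8, Lcn2 and Ngp had 0 to 2 UMIs in each library. Of the 8 monocyte markers, Ly6c2 was at 0 in all 6 libraries and the list summed to 20.2 to 105 CPM, highest in PT D1 library 2. In that library 30 of its 47 UMIs were Plac8 and 13 were Fn1. F13a1 went the other way, with 11 and 7 UMIs in uninjured and 1 in each PT D1 library.

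Choroid plexus markers, of which Ttr gave most UMIs, summed to 10475 and 4652 CPM in uninjured microglia, 595 and 462 CPM at PT D1 and 617 and 196 CPM at PT D7. They moved with the contrast between PT D1 and uninjured, and their part in the results was not tested. PT D1 library 2 stood apart in its cell types. Cluster 3 (called development-associated by the authors) had 36 of its 41 cells at PT D1, and 35 of these were in PT D1 library 2. In the same library the 6 markers of border-associated macrophages summed to 548 UMIs, against 40 to 180 in the other libraries. Of these 548 UMIs, 541 were Cbr2 and 7 were the other 5 markers together, which had 45 UMIs in uninjured library 2, and Cd163 was at 0. Member values with the cluster 3 cells left out are therefore given beside the results they touch.

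The first question was how high the 4 genes stood in microglia of each condition. All 4 were low in uninjured microglia, high at PT D1 and low again at PT D7, in both libraries of each condition. Because the genes were chosen for the difference between PT D1 and uninjured, their levels at PT D1 are a description without a test. Il1r2, Msr1 and Cd300lf passed the filter on low counts only through the PT D1 libraries.

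Il1r2, the decoy receptor, was counted with 1 and 5 UMIs in the 2 uninjured libraries, 59 and 58 at PT D1, then 1 and 0 at PT D7. On the CPM scale, that is 2.75 and 10.7 CPM in uninjured, 164 and 130 CPM at PT D1, and 3.39 and 0 CPM at PT D7. Both PT D1 libraries lay far above the other 4, which overlapped in counts of 5 or fewer. Summed over libraries, the PT D1 level was 20.1 times the uninjured level, with a 95% counting interval of 8.96 to 55.9 that does not cover the spread between libraries. In the edgeR fit the difference was 4.42 ± 0.49 on the log2 scale (SE, 2 libraries per condition).

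Msr1, the scavenger receptor, was counted 2 and 4 times in the uninjured libraries, 59 and 47 times at PT D1, and 6 and 0 times at PT D7. Its levels were 5.49 and 8.54 CPM in uninjured, 164 and 105 CPM at PT D1, and 20.3 and 0 CPM at PT D7. The groups at PT D1 and uninjured did not overlap, whereas the PT D7 libraries fell on either side of the uninjured ones. The PT D1 level was 18.2 times the uninjured level (counting interval 8.10 to 50.7), and the fitted log2 difference was 4.28 ± 0.64.

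Cd300lf, the inhibitory receptor, was alike in the 2 libraries of each condition. Uninjured libraries held 5 and 6 UMIs of it, PT D1 libraries 95 and 91, and PT D7 libraries 3 and 4. The corresponding levels were 13.7 and 12.8 CPM, 264 and 203 CPM, and 10.2 and 13.5 CPM. Again the PT D1 libraries stood alone, and the uninjured and PT D7 libraries overlapped. The PT D1 level was 17.4 times the uninjured level (counting interval 9.52 to 35.5), with a fitted log2 difference of 4.23 ± 0.36.

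Srgn, the granule proteoglycan, had the most UMIs of the 4 in every library and differed most from the others in that uninjured microglia already held it. Uninjured libraries held 50 and 116 UMIs (137 and 248 CPM), PT D1 libraries 544 and 362 (1512 and 808 CPM), and PT D7 libraries 46 and 77 (156 and 260 CPM). The lowest PT D1 library was above every other library, although the 2 PT D1 libraries differed from each other more than those of Cd300lf. The PT D1 level was 5.63 times the uninjured level (counting interval 4.76 to 6.68), and the fitted log2 difference was 2.71 ± 0.38.

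As background for these values, both PT D1 libraries lay above both uninjured libraries for 27.2% of the 4846 genes tested in microglia. At an adjusted p below 0.05 in edgeR's quasi-likelihood test (Benjamini-Hochberg), 5.70% of the genes were called at PT D1, with 2.72% higher and 2.97% lower. The 4 genes were chosen by this contrast, so nothing is read from their place in it. Without the cluster 3 cells the levels in PT D1 library 2 were 162 CPM for Il1r2, 83.3 CPM for Msr1, 202 CPM for Cd300lf and 955 CPM for Srgn, so all 4 remained above every uninjured and PT D7 library.

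**Figure D1:**
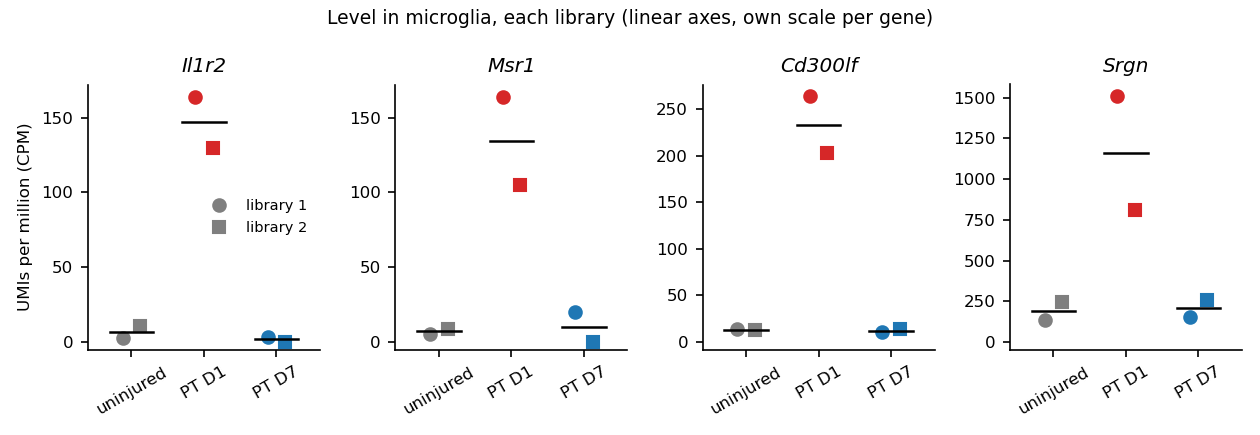
Level of each gene in microglia in CPM (linear axes with a scale of their own per gene); circles are library 1, squares library 2, and lines the mean of the 2 libraries. The PT D1 points stand above all uninjured and PT D7 points in every panel, from 105 to 164 CPM for Msr1 and from 808 to 1512 CPM for Srgn.

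The comparison of PT D7 with uninjured was not used to choose the genes. It shares the uninjured libraries and the fit with the comparison that was used, so it is not fully independent of the choice. Srgn had enough molecules in every library to be tested, and was not called in microglia at PT D7, where 0.165% of all genes tested were called and 7.33% had an unadjusted p below 0.05. Its log2 difference was 0.31 ± 0.38 (adjusted p = 0.914 in edgeR), and its summed counts gave a ratio of 1.04 with a counting interval of 0.819 to 1.33. Because the 3 receptors entered the fit only through PT D1, their values are given without a test. Cd300lf had 7 UMIs at PT D7 against 11 in uninjured, a ratio of 0.896 (0.294 to 2.53). Msr1 had 6 UMIs in both conditions, a ratio of 1.41 (0.376 to 5.27). Il1r2 had 1 UMI against 6, a ratio of 0.235 (0.00510 to 1.93). Counting error was small for Srgn alone, but its counting interval leaves out the spread between libraries. In simulated data for PT D7, 6% of genes changed 2-fold were recovered in microglia, so a missing call does not show an unchanged level. A change of a few fold in Il1r2 or Msr1 between PT D7 and uninjured was not detectable at this depth. The counting interval of Cd300lf was narrower, but it too leaves out the spread between libraries.

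From PT D1 to PT D7, all 4 genes were lower in both PT D7 libraries than in both PT D1 libraries. The share of all genes with that order was not counted, so nothing is read from it. The fitted log2 differences were -6.10 ± 0.69 for Il1r2, -3.58 ± 0.65 for Msr1, -4.17 ± 0.39 for Cd300lf and -2.40 ± 0.38 for Srgn. These share the PT D1 libraries by which the genes were chosen and are given as values only. The size for Il1r2 rests on 1 UMI at PT D7 and on the prior count of the fit.

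How the molecules were spread over the microglial subclusters followed the time point. The authors divided the microglia into clusters 0 (homeostatic), 1 (activated), 2 (unnamed), 3 (development-associated) and 4 (disease-associated), and all 104 cells of cluster 1 came from PT D1, while 1 cell of cluster 0 did. PT D1 gave 36.2% of all microglial UMIs, but 94.4% of those of Il1r2, 89.8% of Msr1, 91.2% of Cd300lf and 75.8% of Srgn. Cluster 1 alone held 77.4% of the Il1r2, 65.3% of the Msr1, 67.2% of the Cd300lf and 62.2% of the Srgn UMIs of microglia. The clusters were made from these same cells and genes, so their differences are a description.

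Il1r2 reached 175 CPM in cluster 1 and 89.0 CPM in cluster 3, against 7.15 CPM in cluster 0, 3.72 CPM in cluster 4 and 0 UMIs in the 59 cells of cluster 2, a limit of 5.08% on cells with a UMI. A UMI was found in 31.7% of cluster 1 cells (95% exact binomial interval 22.9 to 41.6) and 17.1% of cluster 3 cells (7.15 to 32.1). Msr1 stood at 140 CPM in cluster 1 and 119 CPM in cluster 3, with a UMI in 31.7% and 29.3% of cells, and at 7.15 to 14.9 CPM in the other 3 clusters. The intervals of clusters 1 and 3 overlapped for both receptors. Cluster 1 pooled both PT D1 libraries and cluster 3 came almost wholly from library 2, so these levels also carry the difference between libraries.

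Cd300lf was at 249 CPM in cluster 1 and 199 CPM in cluster 3, with a UMI in 68.3% (58.4 to 77.1) and 43.9% (28.5 to 60.3) of cells. In clusters 0, 2 and 4 it was at 11.9, 11.8 and 22.3 CPM. Srgn had its highest level in cluster 1 as well, at 1353 CPM and with a UMI in 95.2% of cells (89.1 to 98.4). It followed in cluster 3 at 640 CPM, cluster 4 at 320 CPM, cluster 0 at 204 CPM and cluster 2 at 130 CPM. Cluster 4, which came mostly from PT D7 (29 of 37 cells), had a UMI of Srgn in 75.7% of cells (58.8 to 88.2), and cluster 0 in 57.7% (50.0 to 65.1), and these intervals overlapped.

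At PT D1 cluster 1 was found in both libraries and can be compared between them. In PT D1 library 1 its 64 cells held Il1r2 at 182 CPM, Msr1 at 178 CPM, Cd300lf at 280 CPM and Srgn at 1615 CPM. In PT D1 library 2 its 40 cells held them at 165, 84.7, 205 and 972 CPM in the same order. Each gene was lower in library 2 within the cluster, with the smallest gap for Il1r2. In the 35 cluster 3 cells of PT D1 library 2, Il1r2 was at 95.6 CPM, Msr1 at 127 CPM, Cd300lf at 205 CPM and Srgn at 656 CPM. Within that library, Cd300lf was thus equal in CPM in both clusters and Msr1 was higher in cluster 3. Il1r2 and Srgn were higher in cluster 1. Msr1 rested on 19 and 28 UMIs, with 10 of the 28 in 1 cell. A UMI of Cd300lf was found in 65.0% of cluster 1 and 48.6% of cluster 3 cells. With 1000 UMIs drawn per cell, Cd300lf was found in 17.5% of cluster 1 and 20.0% of cluster 3 cells, opposite to its shares at full depth. Il1r2 was found in 10.0% of cluster 1 and 14.3% of cluster 3 cells, opposite to its order in CPM. Srgn kept its order at 57.5% and 42.9%, and Msr1 at 7.50% and 17.1%. The intervals of these shares overlapped between the clusters.

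**Figure D2:**
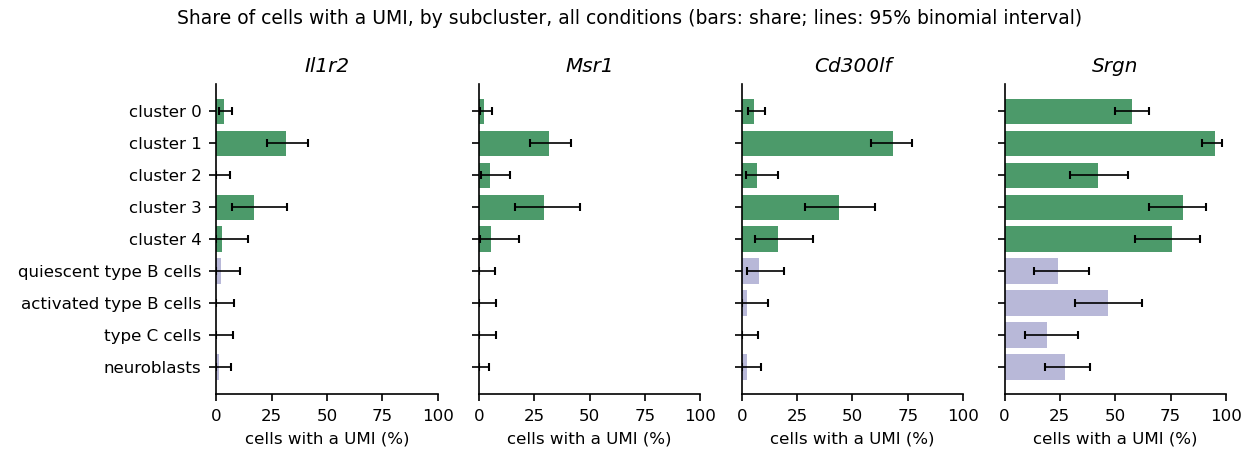
Percentage of cells with at least 1 UMI of each gene in the 5 microglial clusters (green) and the 4 NSPC subclusters (lilac), over all conditions; bars are shares and lines 95% exact binomial intervals, which cover counting error only. Il1r2, Msr1 and Cd300lf stand out in clusters 1 and 3, and Srgn was also found in 42.4 to 80.5% of the cells of clusters 0, 2, 3 and 4.

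The share of microglia with a UMI depends on depth, so each cell was also thinned to 1000 UMIs. At PT D1, 27.2% of 147 microglia had a UMI of Il1r2 (20.2 to 35.2), 31.3% of Msr1 (23.9 to 39.5), 61.9% of Cd300lf (53.5 to 69.8) and 91.8% of Srgn (86.2 to 95.7). The thinned shares were 13.6% (8.51 to 20.2), 12.2% (7.42 to 18.7), 20.4% (14.2 to 27.8) and 57.8% (49.4 to 65.9). They come from a single random draw of UMIs. The mean of 20 draws was 11.3%, 9.18%, 20.7% and 59.9% in the same order. In uninjured microglia the thinned shares were 1.29% for Il1r2, 0% for Msr1 and Cd300lf (0 of 155 cells, which allows up to 1.94%) and 21.3% for Srgn. At PT D7 they were 0% of 114 cells for Il1r2 (up to 2.63%), 1.75% for Msr1 and Cd300lf and 19.3% for Srgn. PT D1 was thus the highest condition for each of the 4 genes in shares at equal depth as in CPM, while the order of uninjured and PT D7 differed between the scales for Cd300lf and Srgn.

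Individual PT D1 microglia were unequal in how many molecules they held. For Il1r2, 107 of the 147 cells had none, 16 had 1 UMI, 16 had 2 to 4 and 8 had 5 or more, up to 10 in a cell. The 15 cells with the most held 67.5% of its UMIs. Msr1 was alike, with 101 cells without a UMI, 6 with 5 or more, a highest count of 12 and 66.0% of UMIs in the top 15 cells. For Cd300lf, 56 cells had no UMI, 9 had 5 or more and the top 15 cells held 41.9% of its UMIs. Srgn was found in most cells, with 12 cells without a UMI, 71 with 5 or more, up to 38 in a cell and 33.2% of UMIs in the top 15 cells. At 1000 UMIs per cell the variance over the mean was 1.42 for Il1r2, 1.43 for Msr1, 1.07 for Cd300lf and 2.03 for Srgn, where a value of 1 is counting error alone. The value near 1 for Cd300lf comes from 1 draw with few UMIs per cell and does not show that the cells were alike. The ratio also depends on the mean, which was 0.184 UMIs per cell for Il1r2, 0.163 for Msr1, 0.231 for Cd300lf and 1.27 for Srgn. The ratio therefore does not rank the genes, and neither does the share in the top 15 cells, which also depends on the mean.

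Co-detection in single microglia was counted next. At PT D1, 16 of 147 microglia had a UMI of all 4 genes, 35 of 3 genes, 55 of 2, 33 of 1 and 8 of none. At least 2 of the 4 were found in 72.1% of PT D1 microglia (64.1 to 79.2), against 9.03% in uninjured (5.03 to 14.7) and 3.51% at PT D7 (0.964 to 8.74). The libraries were at 78.9% and 65.8% at PT D1, 4.23% and 13.1% in uninjured, and 5.56% and 1.67% at PT D7. The PT D1 libraries did not overlap the others. That follows from the choice of genes that were high at PT D1 and is no measure of co-expression. At 1000 UMIs per cell the shares were 27.2% at PT D1, 0.645% in uninjured and 0% at PT D7 (0 of 114 cells). Cells with 2 or more were found in cluster 1 (76.9% of 104 cells) and in cluster 3 (66.7% of 36 cells at PT D1), and the intervals of 67.6 to 84.6 and 49.0 to 81.4 overlapped.

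**Figure D3:**
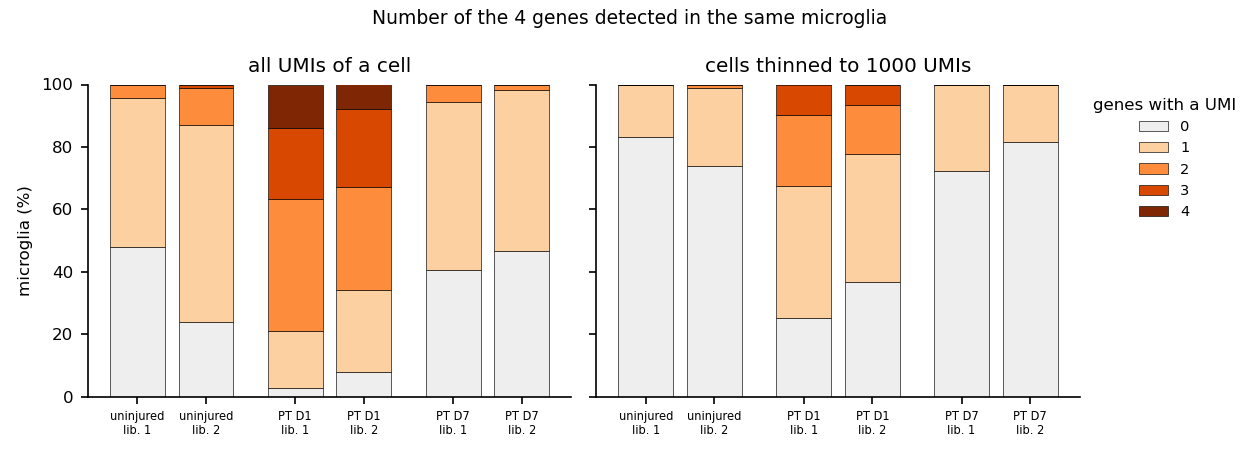
Share of microglia in each library (percent, stacked) with a UMI of 0, 1, 2, 3 or all 4 genes, with all UMIs of a cell on the left and each cell thinned to 1000 UMIs on the right. At full depth, 78.9% and 65.8% of PT D1 microglia held 2 or more, against 1.67 to 13.1% in the other libraries. The genes were chosen for their rise at PT D1, so this difference follows from the choice.

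Within PT D1 microglia, pairs of genes were compared by splitting the cells on 1 gene. Of the 40 cells with Il1r2, 50.0% also had Msr1, against 24.3% of the 107 cells without Il1r2. In library 1 these were 12 of 21 and 12 of 50 cells, and in library 2 8 of 19 and 14 of 57. Cd300lf was found in 80.0% of the cells with Il1r2 and 55.1% of those without it, and Srgn in 100% and 88.8%. Cells with Il1r2 were also deeper in library 1, at a median of 5269 against 4619 UMIs, and about as deep in library 2, at 5338 against 5324. Cells with Msr1 had a median of 5495 against 4461 UMIs in library 1 and 6828 against 4790 in library 2.

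The gaps at equal depth depended on the depth chosen. At 1000 UMIs per cell, Msr1 was found in 15.0% of cells with Il1r2 and 11.8% of those without, and at 2000 UMIs in 8 of 28 and 13 of 108 cells. At 1000 UMIs the direction differed between libraries (1 of 11 against 8 of 60 cells in library 1, 2 of 9 against 7 of 67 in library 2). At that depth Cd300lf was found in 6 of 20 cells with Il1r2 and 24 of 127 without, and at 2000 UMIs in 39.3% and 35.2%. Srgn was found more often in cells with Il1r2 in both libraries. At 1000 UMIs, 90.0% of cells with Il1r2 also had Srgn against 52.8% of those without, which was 90.9% against 61.7% in library 1 and 88.9% against 44.8% in library 2. For cells with and without Msr1 the share with Srgn was 88.9% against 62.9% in library 1 and 66.7% against 47.8% in library 2, from 9 cells with Msr1 in each. Over cells at 2000 UMIs, the Spearman correlation of Il1r2 with Srgn was 0.39 over 66 cells of library 1 and 0.52 over 70 cells of library 2. That of Msr1 with Srgn was 0.29 and 0.24, and that of Cd300lf with Srgn 0.12 and 0.071. The correlations that did not include Srgn lay between -0.05 and 0.23. These values describe sparse counts of cells that share a library and are given without a test.

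Markers of other cells were compared between PT D1 microglia with and without Il1r2. P2ry12, a purinergic receptor of microglia, was at 292 CPM in cells with Il1r2 and 461 CPM in those without in library 1, and at 185 and 230 CPM in library 2. A UMI of any monocyte marker was found in 6 of 21 cells with Il1r2 and 1 of 50 without in library 1, and in 5 of 19 and 19 of 57 in library 2. The 2 libraries differed in this, and its part in the levels of Il1r2 was not tested.

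The second question was whether NSPCs from the same libraries held the 4 genes. Msr1 had 0 UMIs in all 222 NSPCs, a limit of 1.35% on cells with a UMI that says nothing of cells expressing it, and Il1r2 had 2 UMIs, both in PT D1 library 2. Cd300lf had 7 UMIs, of which 6 were at PT D1 (1 in library 1 and 5 in library 2), 1 at PT D7 and 0 in uninjured. Of the 6 UMIs at PT D1, 4 were in quiescent type B cells. At 1000 UMIs per cell, 0 of the 71 PT D1 NSPCs held a UMI of Cd300lf. These 3 genes did not pass the filter on low counts in NSPCs and were not tested there.

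Srgn was the exception, and it rose in NSPCs at PT D1. Uninjured NSPC libraries held 6 and 10 UMIs (51.6 and 20.1 CPM), PT D1 libraries 21 and 51 (146 and 151 CPM), and PT D7 libraries 5 and 9 (60.6 and 22.8 CPM). The PT D1 libraries were alike and lay above the other 4, in which library 1 was higher than library 2 at both times. The log2 difference at PT D1 was 2.34 ± 0.44 (adjusted p = 0.00404, edgeR), or 5.07-fold, where 2.12% of the 4907 genes tested in NSPCs were called and 1.04% were called higher. Without uninjured library 2 the log2 difference was 1.5 and the adjusted p 0.271 in edgeR, and without PT D1 library 2 they were 2.19 and 0.128, so the call rests on those libraries. At PT D7 the difference was 0.09 ± 0.58 (adjusted p = 0.995, edgeR), not called, where 0.0815% of genes were called.

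The share of NSPCs with a UMI of Srgn was 17.3% in uninjured (9.57 to 27.8), 54.9% at PT D1 (42.7 to 66.8) and 15.8% at PT D7 (8.43 to 26.0). At 1000 UMIs per cell it was 2.67%, 21.1% and 2.63%. At PT D1 the gene was found in all 4 subclusters, at 107 CPM in quiescent type B cells (8 of 18 cells), 140 CPM in activated type B cells (14 of 25), 146 CPM in type C cells (6 of 9) and 234 CPM in neuroblasts (11 of 19). In uninjured NSPCs the same subclusters were at 16.9, 48.2, 6.95 and 32.3 CPM, from 1 to 8 UMIs each. The neuroblast value came from PT D1 library 2 alone, since the 4 neuroblasts of library 1 held no UMI of Srgn.

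Microglial RNA in NSPC wells was measured beside this. The 10 microglial markers summed to 456 and 450 CPM in uninjured NSPCs, 223 and 269 CPM at PT D1, and 1454 and 412 CPM at PT D7. In microglia the same markers were also lowest at PT D1, while the summed Srgn counts at PT D1 were 5.63 times the uninjured level in microglia and 5.73 times in NSPCs (counting interval 3.30 to 10.6). Taken as a percentage of the microglial level in the same library, the NSPC level of the pooled markers was 2.57% and 4.33% at PT D1, and that of Srgn was 9.67% and 18.7%. In uninjured libraries the markers were at 2.73% and 2.72% and Srgn at 37.6% and 8.12%, and at PT D7 the markers were at 11.6% and 3.38% and Srgn at 38.9% and 8.76%. Srgn was above the pooled markers in all 6 libraries, and below Sall1, a marker with 17.6 to 76.8%, in 4 of them. Cd300lf was at 2.64% and 7.29% of its microglial level at PT D1, from 1 and 5 UMIs in NSPCs. At PT D7 it was at 0% and 18.7%, from 0 and 1 UMI. Il1r2 was at 0% and 4.57% at PT D1, from 0 and 2 UMIs. These percentages rest on too few UMIs to be set against the markers. Whether the UMIs of Srgn, Cd300lf or Il1r2 in NSPCs came from microglial RNA was not tested.

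**Figure D4:**
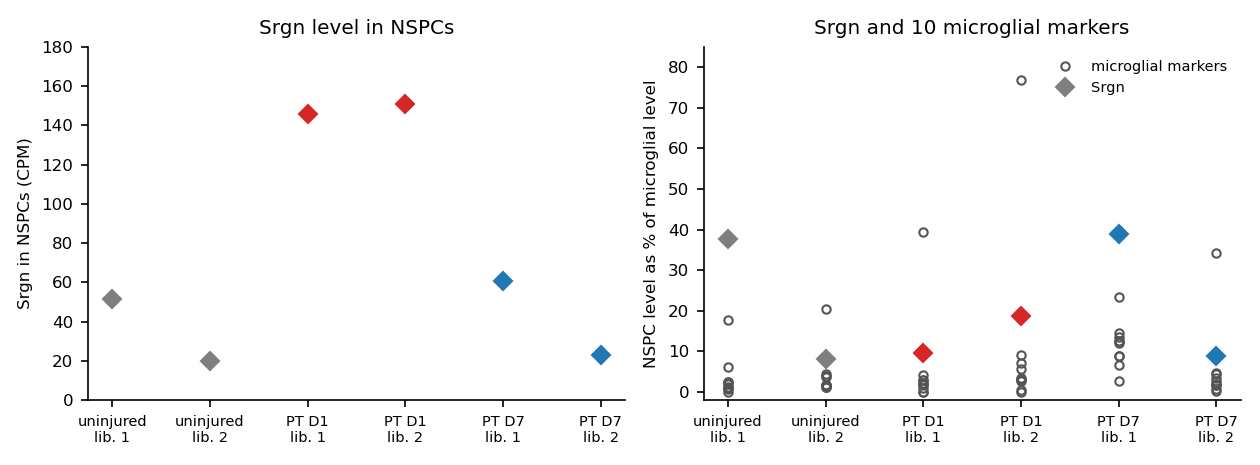
Left, the level of Srgn in NSPCs of each library in CPM. Right, NSPC level as a percentage of the microglial level of the same library for Srgn (diamonds) and 10 microglial markers (open circles); Srgn lies between 8.12% and 38.9%, and the highest open circle, at 17.6 to 76.8%, is Sall1, a transcription factor.

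The genes around the 4 in their pathways were taken from 4 lists, with 96 of 100 genes in the matrix and 40 that passed the filter in microglia. At PT D1, 3 of the 40 rose and 1 fell, against 5.70% of all genes called. The median log2 difference was 0.18 over the 40 and 0.04 over all 4846 genes. At PT D7 none of the 40 was called by edgeR or DESeq2, against 0.165% of all genes in edgeR, and 6 had an unadjusted p below 0.05, against 7.33% of all genes. The labels do not say that same-numbered libraries were paired, but in microglia they deviated together. With the library number added as a block, the calls at PT D1 rose from 4 to 9 of these genes. At PT D7 they rose from 0 to 1 (Clec7a, log2 difference 2.29, adjusted p = 0.0425 in edgeR). Over all genes the block raised the calls as well, from 276 to 639 (13.2%) at PT D1 and from 8 to 43 (0.887%) at PT D7. Sdc4 passed the filter on low counts only through PT D1, Clec7a only through PT D7 and Mrc1 only through uninjured. Each was highest in that condition, so its p-value is no independent support.

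The IL-1 list held 22 genes, of which 9 were tested and none was called at PT D1. Il1a, a cytokine bound by the decoy receptor, was at 43.9 and 27.8 CPM in uninjured, 72.3 and 121 CPM at PT D1, and 23.7 and 60.7 CPM at PT D7. Its log2 difference at PT D1 was 1.58 ± 0.43 (adjusted p = 0.0539, edgeR), and with the block it was called (adjusted p = 0.00591, edgeR). The other cytokine, Il1b, was at 0 and 8.54 CPM in uninjured, 8.34 and 44.7 CPM at PT D1 and 3.39 and 6.75 CPM at PT D7, and Il1rn, the receptor antagonist, at 0 to 15.6 CPM in all 6 libraries.

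The signalling receptor was scarce in these cells. Il1r1 had 2 UMIs in all microglia, at 0 and 2.14 CPM in uninjured and 0 and 2.23 CPM at PT D1. Il1rap, the accessory chain of the receptor, was at 3.37 to 22.0 CPM, and neither passed the filter. At PT D1 the decoy Il1r2 at 164 and 130 CPM thus stood above Il1r1 in UMIs, a comparison of molecules counted at the 3′ end and not of protein. Among the signalling genes, Irak1 was at 189 and 145 CPM at PT D1 (log2 difference -0.33 ± 0.26), Irak2 at 44.5 and 58.1 CPM (-0.08 ± 0.37) and Pycard, the inflammasome adaptor, at 44.5 and 58.1 CPM (-0.55 ± 0.33), none of them called.

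Of the 20 scavenger receptor genes 8 were tested, and Cd14, the co-receptor for lipopolysaccharide, rose. It was at 220 and 226 CPM in uninjured, 456 and 563 CPM at PT D1 and 305 and 226 CPM at PT D7, with a log2 difference at PT D1 of 1.31 ± 0.27 (adjusted p = 0.0181, edgeR). The call was lost without either uninjured library (adjusted p of 0.209 and 0.212, edgeR). The abundant receptors Cd68, Lrp1, Scarb2 and Stab1 differed by -0.20 to 0.19 on the log2 scale at PT D1 and were not called. Marco, another class A scavenger receptor, had 0 UMIs in microglia. The mannose receptor Mrc1 was at 68.6 and 49.1 CPM in uninjured and 13.9 and 6.70 CPM at PT D1 (-2.39 ± 0.70, adjusted p = 0.0737 in edgeR), and was called lower with the block (adjusted p = 0.0041).

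The list of the CD300 family, paired receptors and their adaptors had 30 genes, of which 17 were tested, 1 rose and 1 fell. Fcgr3, an activating IgG receptor, was at 755 and 850 CPM in uninjured, 1707 and 1311 CPM at PT D1 and 705 and 661 CPM at PT D7, with a log2 difference of 1.03 ± 0.25 (adjusted p = 0.0374, edgeR). That call held in 8 of 16 alternatives. Siglech, a sialic acid receptor that is also on the list of microglial markers, fell from 840 and 692 CPM to 322 and 212 CPM (-1.40 ± 0.29, adjusted p = 0.018 in edgeR), and lost its call without either uninjured library (adjusted p of 0.204 and 0.0882). Sirpa, the inhibitory receptor for Cd47, was at 571 and 581 CPM in uninjured and 339 and 281 CPM at PT D1 (-0.77 ± 0.25, adjusted p = 0.0998, edgeR), and was called lower with the block (adjusted p = 0.0213).

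The adaptors through which such receptors signal were not called at PT D1. Fcer1g differed by 0.39 ± 0.25, Tyrobp by -0.15 ± 0.25 and Trem2, a receptor that uses Tyrobp, by -0.37 ± 0.24 on the log2 scale. Ptpn6, the phosphatase recruited by inhibitory receptors such as that of Cd300lf, was at 162 and 164 CPM in uninjured and 122 and 159 CPM at PT D1 (-0.09 ± 0.28). Cd300a, the inhibitory relative of Cd300lf, was at 43.9 and 36.3 CPM in uninjured and 22.2 and 20.1 CPM at PT D1 (-0.78 ± 0.43, adjusted p = 0.312, edgeR), and Cd300ld, Cd300lb, Cd300e, Cd300c and Cd300lg were at 0 to 11.2 CPM in every library. How reads shared by near-identical family members were counted is not given in the sources used here.

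Of the 28 proteoglycan genes 6 were tested. Sdc4, Cd44 and Sdc1 passed the filter on low counts only with the PT D1 libraries counted. Their adjusted p-values are therefore no independent support for a rise. Sdc4, a heparan sulfate proteoglycan of the cell surface, was called higher at PT D1. It was at 22.0 and 36.3 CPM in uninjured, 153 and 132 CPM at PT D1 and 17.0 and 6.75 CPM at PT D7, with a log2 difference of 2.37 ± 0.37 at PT D1 (adjusted p = 0.004, edgeR), lost without uninjured library 1 (adjusted p = 0.0862). Cd44, which can carry chondroitin sulfate, had 6 and 11 UMIs in uninjured and 9 and 68 UMIs at PT D1, high in library 2 alone (2.27 ± 0.68, adjusted p = 0.0761 in edgeR, and 0.00107 with the block). Sdc1 was at 0 and 29.9 CPM in uninjured and at 2.78 and 105 CPM at PT D1, again high in library 2 (1.90 ± 1.05, adjusted p = 0.322 in edgeR, and 0.0121 with the block). The enzymes that build the chondroitin sulfate chains of serglycin were scarce. Of them Chsy1 was tested, at 43.9 and 38.4 CPM in uninjured and 75.1 and 46.9 CPM at PT D1 (0.68 ± 0.43, adjusted p = 0.399, edgeR).

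**Figure D5:**
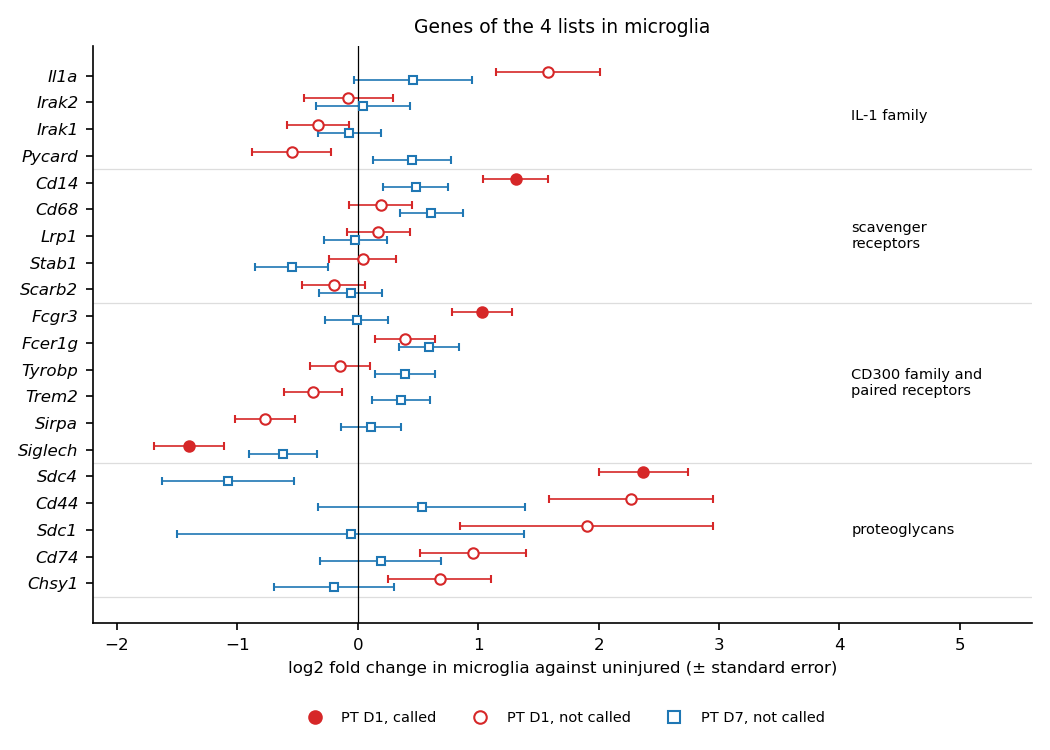
Log2 fold change in microglia against uninjured, with its standard error, for the called genes and up to 4 uncalled, abundant genes of each list; circles are PT D1 (filled where the adjusted p was below 0.05) and squares PT D7. Sdc4, Cd14 and Fcgr3 are filled to the right and Siglech to the left, and no square is filled.

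Neighbours on the chromosomes were also read. Within 250 kb of Il1r2 lie 3 protein-coding genes, Map4k4, Il1r1 and Il1rl2, with 276, 2 and 31 UMIs in microglia. Map4k4 was the one that was tested, with a log2 difference at PT D1 of -0.12 (adjusted p = 0.901, edgeR). Of the 23 neighbours of Cd300lf, 17 were in the matrix and 2 were tested. Tmem104, on the opposite strand and upstream of Cd300lf, rose (1.65, adjusted p = 0.0163, edgeR), whereas Cd300a did not pass the threshold, as given above. The 4 tested neighbours of Srgn (Vps26a, Ddx21, Ddx50 and Ccar1) differed by 0.09 to 0.98 and none was called, and Msr1 had no protein-coding neighbour within that distance.

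The genes with the most similar pattern were ranked by the root mean square difference of log2 CPM over the 6 microglial libraries, each gene centred on its own mean, among 2331 genes with a mean of at least 50 CPM. Nearest to Il1r2 were Pik3ip1 (difference 0.47), Cd300lf (0.52) and Msr1 (0.65). Nearest to Msr1 were Klf9 (0.51), Il1r2 (0.65) and Sdc4 (0.70). The ranking of Il1r2 held 2 of the other 3 genes, and with a prior count of 0.5 Pik3ip1 left it for Sdc4. The genes under study were chosen for a shared rise at PT D1, so their nearness in these same libraries follows from the choice. Il1r2 and Msr1 were at 0 to 20.3 CPM outside PT D1 and reached the mean of 50 CPM only through the PT D1 libraries. Pik3ip1, an inhibitor of PI3 kinase, stood at 2.75 and 17.1 CPM in uninjured, 170 and 145 CPM at PT D1 and 0 and 3.37 CPM at PT D7.

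For Cd300lf the nearest genes were Cxcl2 (0.21), Ier3 (0.44) and Socs3 (0.48). Cxcl2, a chemokine that attracts neutrophils, was at 16.5 and 8.54 CPM in uninjured, 242 and 152 CPM at PT D1 and 10.2 and 13.5 CPM at PT D7. Socs3, a feedback inhibitor of cytokine receptors, was at 46.7 and 55.5, 322 and 380, and 37.3 and 43.9 CPM in the same order. For Srgn they were Id2 (0.22), Rbm3 (0.34) and Il4ra (0.37). Id2, an inhibitor of basic helix-loop-helix transcription factors, went from 82.4 and 126 CPM to 828 and 527 CPM and back to 102 and 108 CPM. The likeness is over 6 libraries in 3 conditions and says nothing beyond the shape of these levels.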

How the data were processed

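Cells of 6 libraries were prepared with mCEL-Seq2, in which a UMI marks each molecule. Per the labels, bcl2fastq 2.17.1.14 split the reads and the build was GRCm39. Nothing read here names the aligner, counting program, strand setting or annotation. The deposited counts are whole UMIs per gene and cell, not normalized by the authors, who filtered cells on low UMIs, on mitochondrial share and on high outliers taken as putative doublets. The cells in the files have at least 1001 UMIs and at most 24.5% mitochondrial UMIs, and no doublet caller was run. The deposited percent of mitochondrial UMIs and the classes and subclusters are also the authors'. ERCC rows (92) held 0 UMIs and were left out. The other text columns of the cell table were not used.

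Which PT D7 library is 1 or 2 was taken from the final digit in each cell's name. UMIs were summed per library and class. edgeR 4.0.16 (filterByExpr, TMM, 1 quasi-likelihood fit over 3 conditions, residual df 3) gave log2 fold changes with Benjamini-Hochberg adjusted p over 4846 genes in microglia and 4907 in NSPCs, called below 0.05. CPM is UMIs per 1000000 UMIs of the summed cells. Ratios and shares have exact 95% intervals, which, like the floor of 3 counts per condition, cover counting error only. Alternatives used DESeq2 1.42.0 and other filters, scalings, depths and left-out libraries. In simulated data for PT D1, 77.5% of genes changed 4-fold and 9% of those changed 2-fold were recovered in microglia (4846 genes), and 81% and 16% in NSPCs (4907 genes).

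The 4 genes and the lists were chosen with earlier results of these data known. Text names the 4 genes, list genes that were called, up to 4 abundant uncalled genes per list, Il1r1, Il1rap, Il1rn and Il1b, and the 3 most similar genes (prior count 2) of each of the 4. Other genes named (Mrc1, Cd300a and its relatives, Marco, Ptpn6, Clec7a, neighbours and cell markers) were chosen after their values were seen. Deviations of same-numbered libraries correlated at 0.22, 0.193 and 0.262 in microglia. In NSPCs of the same libraries they correlated at 0.095, -0.0581 and -0.041. The labels give no pairing, so the block is an alternative and its calls rest on no known pairing. NSPC markers in microglia were also higher in library 2 of each condition. They were at 493 against 124 CPM in uninjured, 212 against 66.7 CPM at PT D1 and 418 against 102 CPM at PT D7. What the library number stands for was not tested.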

Additional observations from a re-analysis of the deposited data

Results flagged for a closer look

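Srgn in the mixed population, 20 cells that the comparisons of microglia and NSPCs left out, stood at 552 CPM at PT D7 (36 UMIs in 8 cells, 7 of them with a UMI) against 181 CPM in uninjured (10 UMIs, all in 1 of 4 cells). The PT D7 libraries were at 782 and 272 CPM, and PT D1 was at 106 CPM (7 UMIs in 8 cells). The uninjured cells all came from library 2, and no test was made.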

How the results depend on the processing

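The 4 genes were chosen for their rise at PT D1, so what they keep in microglia under these alternatives is no support for it. With a filter of 10 UMIs in every library, 1 of the 4 genes (Srgn) could be read in microglia at PT D1 and 1 from PT D1 to PT D7, in place of 4 and 4. In cells thinned to 1000 UMIs it was 3 in each comparison, without Msr1. Leaving out 1 library kept 4 of 4 past 2-fold in both, and left 0 to 1 of the 4 called in NSPCs at PT D1, with 0 when library 2 of either group was the one left out. Called list genes at PT D1 went from 4 to 9 with no filter, to 9 with the replicate block, to 2 in cells thinned to 1000 UMIs, and from 0 to 8 when 1 library was left out (0 without uninjured library 1, 1 without uninjured library 2, 8 without PT D1 library 1). At PT D7 they went from 0 to 1 with no filter and to 1 with the replicate block, and lay from 0 to 1 with 1 library left out. Over all genes, 5.70% were called at PT D1 in the main fit and 13.2% with the block. That share was not counted with no filter, in thinned cells or with 1 library left out. The counts of list genes under those settings are therefore not read as a trait of the lists. The cause of their changes was not tested.

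The shares of PT D1 microglia with a UMI depend on depth by construction. For Il1r2 the share was 13.6% at 1000 UMIs, 20.6% at 2000 and 27.2% at full depth. For Msr1 it was 12.2%, 15.4% and 31.3% in the same order. For Cd300lf it was 20.4%, 36.0% and 61.9%, for Srgn 57.8%, 79.4% and 91.8%, and for 2 or more genes 27.2%, 49.3% and 72.1%. With either PT D1 library left out, Srgn lay at 50.0% to 66.2%. In microglia, the 4 genes kept their direction at PT D1 and from PT D1 to PT D7 under every alternative that held them. That describes genes chosen for this rise. At PT D7 against uninjured, the untested log2 difference of Msr1 was 0.70, but ran from -4.50 to 1.77 with 1 library left out. The replicate block added Il1a, Mrc1, Sirpa, Cd44 and Sdc1 to the list genes called at PT D1 and Clec7a at PT D7, and changed no call of the 4 genes. In NSPCs, Srgn at PT D1 had a log2 difference of 2.30 with the block (adjusted p = 0.00876, edgeR).

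The 3 receptors have under 12 UMIs per condition outside PT D1, so their fitted folds rest on few molecules. For Il1r2 the log2 difference at PT D1 ran from 3.87 to 5.62 with 1 library left out, and from PT D1 to PT D7 Msr1 ran from -8.71 to -2.50. In cells with at most 10% mitochondrial UMIs, the log2 difference at PT D1 was 3.20 for Msr1 and 3.75 for Il1r2, and Msr1 differed by -2.75 from PT D1 to PT D7. With 2 libraries per condition, 2-fold changes were mostly missed in simulated counts.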
